A study of Mus musculus with 6 samples.

Results

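The transcriptome described here is that of stem cells of the mouse hair follicle after saline treatment, sorted as CD49f+ CD34+ GFP-. The members are the libraries whose treatment label is NaCl, 3 of the 6 libraries of the series, and no value from the DT (diphtheria toxin) libraries was used. The cells came from the skin of Lgr5-DTReGFP mice, which carry a diphtheria toxin receptor and eGFP reporter at the Lgr5 locus; saline animals carry the same allele but received no toxin. CD49f is the surface name of integrin alpha 6, the product of Itga6, and GFP- cells are those that gave no reporter signal at sorting. Age, sex, the number of reporter alleles, the hair cycle stage and whether each library came from a different mouse are not recorded in the labels, so the spread between libraries may be technical in part. With a single group there is no contrast and no test: levels are given for saline libraries 1, 2 and 3 in that order, as the mean ± SD (n = 3), or as counts of genes beside the share of all genes that met the same rule.

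The bulge is the part of the hair follicle below the sebaceous gland where slow-cycling epithelial stem cells sit on a basement membrane around the club hair. In mouse skin these cells carry CD34 and high integrin alpha 6 on their surface and express keratin 15, SOX9 and LHX2. Between hair growth phases they are held in quiescence by BMP signals and by secreted Wnt inhibitors. Wnt signals activate the hair germ below them and then the bulge. Lgr5 is expressed in the lower bulge and hair germ, and the GFP- gate keeps cells without its reporter.

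The genes behind the sort were present in every library. Cd34 (Entrez 12490, chr1:194938821-194961292 in GRCm38) stood at 862, 1044 and 1110.3 nRPKM, a mean of 1005 ± 128 (SD, n = 3), where nRPKM is the authors' RPKM, a count scaled to gene length and depth, after adjustment by a size factor of the library. Itga6 (Entrez 16403, chr2:71786886-71858427) was at 22.3, 17.4 and 16.5 nRPKM. Lgr5 (Entrez 14160, chr10:115450314-115587780), the locus of the reporter, was low at 3.45, 6.297 and 4.64 nRPKM. Cd34 therefore lay above Itga6 by factors of 38.7, 59.9 and 67.4 in the 3 libraries, and Itga6 above Lgr5 in each. These genes chose the cells, directly or through the reporter, so their presence is a check of the labels and not a result.

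The other bulge markers were also high. Krt15 (Entrez 16665, chr11:100131759-100135949) encodes the keratin used as the classical bulge marker and was the highest gene of the whole table. Postn (Entrez 50706, chr3:54359267-54391041), for the matrix protein periostin, was at 1454, 1565 and 1637 nRPKM and its mean was above 99.8% of expressed genes. Sox9 (Entrez 20682, chr11:112782210-112787757), a factor needed for the bulge to form and persist, was at 294, 209 and 166 nRPKM (percentile 98.1). Lhx2 (Entrez 16870, chr2:38339271-38369737), a LIM homeobox factor of the bulge, was at 65.9, 42.7 and 36.9 nRPKM (percentile 87.1). On the same scale Cd34 was at percentile 99.7 and Itga6 at 68.9. Sox9 and Lhx2 were highest in library 1 and lowest in library 3, whereas Postn and Cd34 had the opposite order.

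Depth was even, with 22741846, 21351548 and 22398109 gene-assigned reads in libraries 1, 2 and 3. Library 1 stood apart from the other 2: it was the deepest, yet had the fewest genes with a read (17405, 18799 and 19716) and the fewest genes with 1 to 10 reads (2754, 4289 and 4764). In library 1, 1451 genes were at 0 reads that had reads in both other libraries, against 469 and 234 for libraries 2 and 3. Its part in the results below was not tested beyond leaving it out. A gene was called expressed at 1 nRPKM or more in every library, which 11115 of 36528 listed genes met (30.4%), or 11444 without library 1. Among protein-coding genes it was 9944 of 21271 (46.7%), and among long non-coding RNA genes 412 of 7482. The 46.7% of protein-coding genes is the share to set beside the counts of expressed members given below.

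A small number of genes held much of the signal. The 100 highest genes of each library made up 34.3, 35.7 and 34.4% of its summed nRPKM, and its 10 highest 14.6, 15.97 and 14.97%. Krt15, Krt17, Krt5 and Krt14 alone made up 8.96, 10.7 and 9.55%. The highest bin of level, a mean of 1000 nRPKM or more, held 34 expressed genes, and 5899 had a mean from 1 to 10 nRPKM. Among all genes Sox9 held rank 213, Lhx2 rank 1430 and Itga6 rank 3454.

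**Figure D1:**
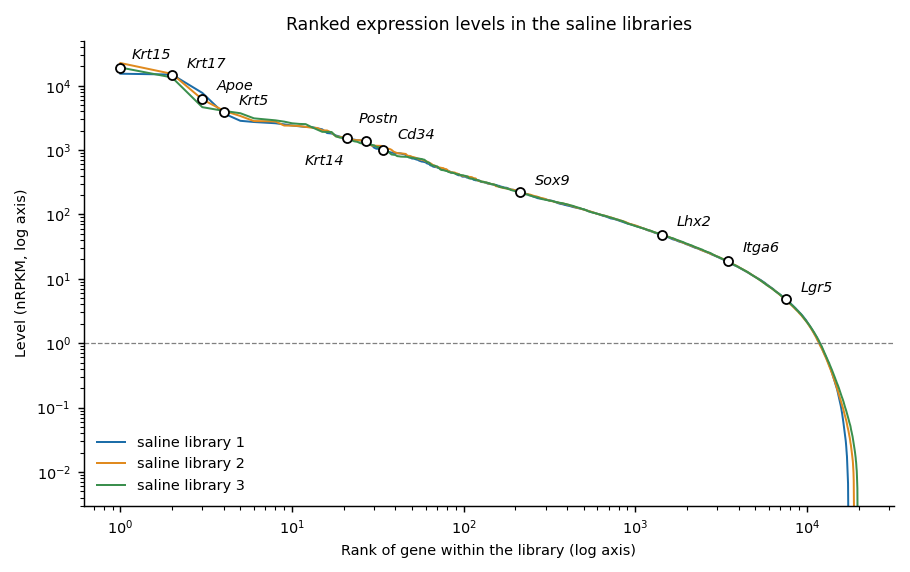
Level of every gene with reads (nRPKM, log axis) against its rank within each saline library (log axis), with named genes marked at their mean level and its rank. The 3 curves differ over the first few ranks, overlie each other from there down to about 1 nRPKM (dashed line) and part again below it, where library 1 ends at the lowest rank.

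Krt15 led the table at 15368, 22514 and 19176 nRPKM (19019 ± 3576) and was highest in library 2. Krt17 (Entrez 16667, chr11:100256215-100261029), a keratin of the outer root sheath and of stressed epidermis, followed at 14919.5, 15269 and 13439 nRPKM. The ranges of Krt15 and Krt17 did not overlap, but in library 1 they differed by a factor of only 1.03. Apoe, which encodes a lipid carrier protein, came next at 7741, 6137 and 4645 nRPKM, with library 1 highest. Krt5, for the basal type II keratin, was steadier at 3714, 4089 and 3738 nRPKM. Perp, for a tetraspan protein of desmosomes, was at 2671, 2824 and 3004 nRPKM. The spread of Apoe (coefficient of variation 25.1%) was larger than that of Krt5 (5.46%).

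Angptl7, for a secreted angiopoietin-like protein, was at 1365, 3385 and 3114 nRPKM, so library 1 held less than the lower of the other 2 by more than 2-fold. Aqp3, for the water and glycerol channel of basal keratinocytes, was also lowest in library 1, at 1689, 2809.7 and 2531 nRPKM. The tetraspanin gene Cd9 was at 2189.8, 2229.6 and 2609 nRPKM. These 3 genes shared library 1 as their lowest library. Annexins, which bind membranes in the presence of calcium, were represented by Anxa2 at 2409, 2398 and 2899.7 nRPKM, Anxa1 at 2511, 2406 and 2769 nRPKM and Anxa8 at 2100.2, 2294 and 2552 nRPKM. Sdc4, for the heparan sulfate proteoglycan syndecan 4, was at 2286, 2365 and 2276 nRPKM, with a coefficient of variation of 2.11%. Actb, for cytoplasmic actin, went the other way, with its highest value in library 1 (2851, 2207 and 1539 nRPKM). Gsn, for the actin-severing protein gelsolin, was at 2346, 1869.5 and 1906 nRPKM and S100a6, for a calcium-binding protein, at 2613, 2017 and 1922 nRPKM. The MHC class I genes B2m and H2-D1 were at 2280.5, 2029 and 1916 and 1841, 1603 and 1345 nRPKM. Pleiotrophin, a heparin-binding growth factor encoded by Ptn, reached 1524, 1527 and 1227 nRPKM. The ferritin heavy chain gene Fth1 was at 1506, 1422 and 1233 nRPKM and Itm2b, for an integral membrane protein, at 1619, 1379 and 1281 nRPKM. Library 1 was thus neither high nor low as a rule among the leading genes.

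Mitochondrial transcripts were led by CYTB at 2732, 2779 and 4068 nRPKM and ND1 at 1415, 1423 and 2089 nRPKM. Library 3 was highest for CYTB and ND1. All listed genes of the mitochondrial genome together made up 1.57, 1.496 and 2.19% of the summed nRPKM. The mitochondrial protein gene ND4L had no read in any library, so this share may miss part of the mitochondrial RNA. Rpl4 was the highest gene for a cytosolic ribosomal protein, at 1423, 1429 and 1439.8 nRPKM with a coefficient of variation of 0.603%. Of 80 such genes 77 were expressed, the median over all 80 was 12.5 nRPKM, and they summed to 2.44, 2.33 and 2.19% of the nRPKM. Reads that align to more than 1 place were left out by the authors, which lowers genes with many processed pseudogenes, and ribosomal protein genes are of that kind.

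Promoter sequence of some of the leading genes and of Cd34 is shown as examples, and the motif shares of gene groups follow. Each line gives the 100 bases upstream of the annotated start, 5′ to 3′ on the gene's strand, from RefSeq on GRCm38.p6, and capitals mark matches to the motifs searched. The motifs were TATAAA (the TATA box), GGGCGG (the GC box of SP1-type factors), GCCNNNGGC (an AP-2 motif) and TGANTCA (the AP-1 motif), each on both strands and counted separately where they overlap. The windows are chr15:101712906-101713005 for Krt5 (minus strand), chr9:69453583-69453682 for Anxa2 (plus), chr19:20390672-20390771 for Anxa1 (minus), chr4:41098184-41098283 for Aqp3 (minus), chr6:125494761-125494860 for Cd9 (minus) and chr1:194938721-194938820 for Cd34 (plus).
Krt5: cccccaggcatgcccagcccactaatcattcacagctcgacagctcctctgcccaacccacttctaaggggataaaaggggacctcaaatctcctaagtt
Anxa2: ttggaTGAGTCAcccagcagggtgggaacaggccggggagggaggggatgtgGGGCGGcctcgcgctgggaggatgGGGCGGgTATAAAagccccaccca
Anxa1: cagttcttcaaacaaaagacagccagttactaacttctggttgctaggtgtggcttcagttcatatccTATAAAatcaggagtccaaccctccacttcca
Aqp3: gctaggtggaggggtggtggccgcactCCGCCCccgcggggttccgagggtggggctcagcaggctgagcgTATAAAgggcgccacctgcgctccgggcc
Cd9: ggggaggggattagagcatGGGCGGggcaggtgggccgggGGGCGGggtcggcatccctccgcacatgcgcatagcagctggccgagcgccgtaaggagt
Cd34: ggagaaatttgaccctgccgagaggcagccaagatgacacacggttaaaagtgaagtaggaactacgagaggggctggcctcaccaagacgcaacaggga

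Over the 14270 protein-coding genes with a single start in the table, TATAAA was present in 6.83% of these windows. It was present in 14.8% of the 61 top-100 genes with an entry, in 2.21% of all 6394 expressed genes and in 13.2% of the 4426 genes without a read. TGANTCA ran the same way, with 9.84% among the top genes, 1.61% among expressed genes and 2.38% overall. The GC box was present in 50.4% of expressed genes, against 42.6% of the top genes, 9.74% of genes without a read and 33.7% overall. GCCNNNGGC was found in 3.28% of top genes, 10.2% of expressed genes and 8.35% overall. The Anxa2 window held an AP-1 motif, GC boxes and a TATA box, Anxa1 a TATA box and Aqp3 a TATA box and a GC box, whereas neither Krt5 nor Cd34 had a match to any of the motifs. Of leading genes not printed, Angptl7, Anxa8, S100a6, B2m, Rpl4 and Ptn had no match. Sdc4 and Itm2b had the GC box and H2-D1 the TATA box. The printed windows therefore do not represent the leading genes. A match describes the letters and is not evidence of a bound site.

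Keratins form the intermediate filaments of epithelial cells as pairs of a type I and a type II chain, and their choice marks the layer. Of 53 keratin genes 21 were expressed (39.6%, beside 46.7% of protein-coding genes), 9 had no read in any library and 23 lay between. The basal chains Krt5 and Krt14 were both high, Krt14 (Entrez 16664, chr11:100203162-100207510) at 1211, 1325 and 1562 nRPKM. Among type I chains Krt15 exceeded Krt14 by factors of 12.7, 16.99 and 12.3, and Krt17 exceeded Krt14 by 12.3, 11.5 and 8.604. Krt14, Krt16 and Krt17 are similar in sequence and reads that fit several of them are not counted, so their relative levels are uncertain.

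Krt15, Krt17, Krt5 and Krt14 lay above the next keratins in every library. Krt80, for a type II keratin of differentiating epithelium, was at 175, 241 and 205 nRPKM. Krt6a, a keratin of the companion layer and inner bulge, was at 112, 236 and 217 nRPKM and its near copy Krt6b at 1.93, 5.29 and 4.59 nRPKM. Both were lowest in library 1, and reads shared between the copies are missing from each. The ranges of Krt80 and Krt6a overlapped. Krt24, a type I keratin, was at 46.1, 61.5 and 69.5 nRPKM. Krt79, which marks the follicle's infundibulum, was at 26.9, 18.6 and 40.2 nRPKM. Krt77 was at 40.5, 38.6 and 25.01 nRPKM and Krt10 and Krt1, the pair of the suprabasal epidermis, at 29.1, 22.1 and 17.9 and 17.9, 7.44 and 6.32 nRPKM. Library 1 had the highest value of all 3 of these differentiation keratins. Krt32, a type I hair keratin, was at 9.52, 10.8 and 13.8 nRPKM.

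Chains of other compartments were near the lower limit. Krt71, of the inner root sheath, was at 4.73, 2.69 and 3.58 nRPKM and Krt75, of the companion layer, at 3.82, 3.95 and 3.005 nRPKM. Krt19, used as a marker of bulge cells in some skin regions, was at only 2.63, 2.49 and 2.26 nRPKM. Krt16, induced with Krt6 in stressed epidermis, was at 2.53, 1.07 and 3.17 nRPKM. Krt8 and Krt18, the simple epithelial pair of Merkel cells, were at 0.496, 0.408 and 0.589 and 0, 0.641 and 0.381 nRPKM, with no Krt18 read in library 1. The keratins without a read were Krt9, Krt33b, Krt34, Krt39, Krt40, Krt72, Krt81, Krt82 and Krt88, most of them chains of the hair shaft or inner root sheath.

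**Figure D2:**
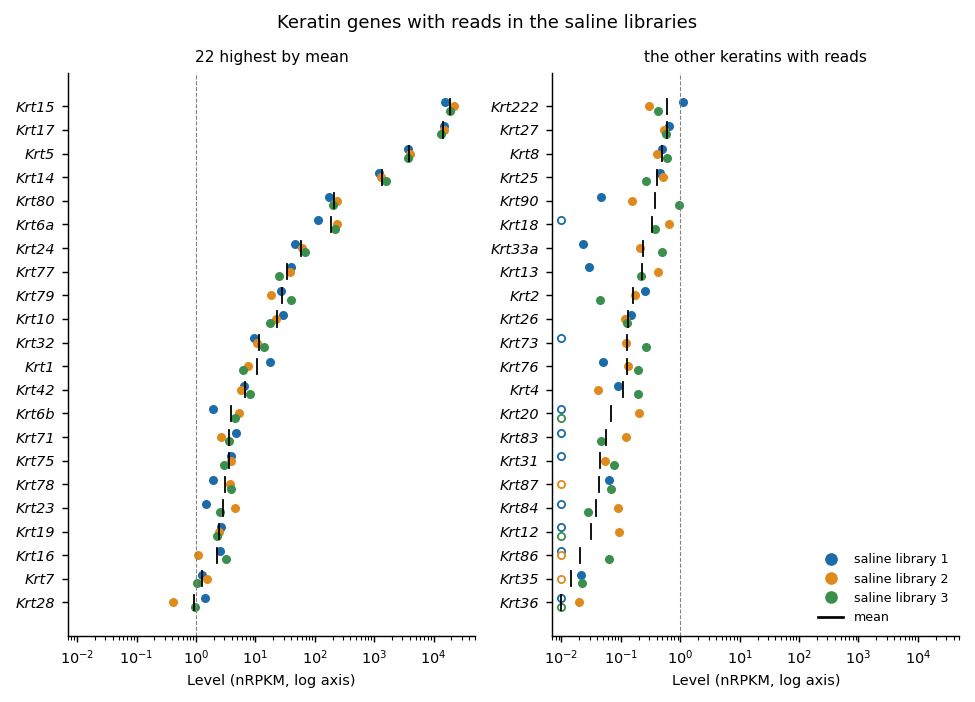
Level of each keratin gene with reads (nRPKM, log axis) in each saline library, ordered by mean; the vertical tick is the mean of 3 libraries, open points are values of 0.01 or less drawn at 0.01, and the dashed line is 1 nRPKM. Krt15, Krt17, Krt5 and Krt14 lie above the others in every library while Krt80 and Krt6a, the next by mean, reach at most 241 and 236 nRPKM.

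Keratin-associated proteins, which cross-link hair keratins in the shaft, were almost silent. Of 54 genes 1, Krtap17-1, was expressed (5.204, 4.21 and 6.11 nRPKM) and 30 had no read. Over the whole family, Krtap17-1 included, 2, 3 and 24 genes had reads in libraries 1, 2 and 3, and 21 had reads in library 3 only. Of all 36528 listed genes, 17405, 18799 and 19716 had reads in libraries 1, 2 and 3. Reads in that library only were found for 415, 827 and 1509 of them, so library 3 led over all genes too. Those reads were few, with 106, 113 and 251 reads over the whole family, and Krtap21-1 reached 0.875 nRPKM in library 3. Among hair shaft keratins Krt33a was at 0.0232, 0.207 and 0.487 nRPKM, also highest in library 3, while Krt81, Krt33b and Krt34 had no read in any library.

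Of 37 genes listed for bulge identity, 33 were expressed and none was at 0 reads in all libraries, against 46.7% expressed among protein-coding genes. Their median was 48.5 nRPKM, beside 0.872 over all protein-coding genes. The list was assembled with earlier results of these data known and holds the sort genes, so the count describes the libraries and is no independent evidence of identity.

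Surface and secreted members were at high levels. Cd200, for an immune-inhibitory surface protein of bulge cells, was at 576, 691 and 846 nRPKM. Egfl6, which encodes a basement membrane protein that bulge cells deposit at the nerve endings of the follicle, was at 238, 247 and 266 nRPKM. Col17a1, for the hemidesmosomal collagen needed to keep these stem cells, was at 269, 187 and 166 nRPKM. Cd200 was lowest in library 1 and Col17a1 highest there, and Egfl6 varied little. Npnt, for the nephronectin that bulge cells place under the arrector pili muscle, was at 30.5, 21.2 and 15.8 nRPKM, and Ltbp2, for a latent TGF-beta binding protein, at 15.9, 20.1 and 17.2 nRPKM. The listed genes that missed the expressed threshold were Slc1a3 at 0.555, 0.577 and 0.885 nRPKM, Fgfbp3 at 0.621, 0.198 and 0.2097 nRPKM, Dio2 at 0.1004, 0.112 and 0.0985 nRPKM and the factor Tbx1 at 1.29, 0.988 and 0.819 nRPKM.

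Bulge transcription factors spanned a wide range of levels, and 13 of 14 were expressed. Below Sox9 came Nfib, a chromatin regulator of hair follicle and melanocyte stem cells, at 164, 158 and 149.6 nRPKM. Tcf7l2 was at 77.9, 130.1 and 89.9 nRPKM and Tcf7l1, the other TCF of the bulge, at 4.11, 4.36 and 3.22 nRPKM. The TCF genes, whose products carry the Wnt signal to DNA, thus differed by factors of 18.96, 29.8 and 27.9. Nfatc1, which holds bulge cells in quiescence downstream of BMP, was at 62.1, 48.7 and 38.7 nRPKM, a range that overlapped that of Lhx2. Foxc1, which restrains activation of the bulge, was at 14.2, 9.26 and 7.83 nRPKM. Hopx was at 17.8, 16.3 and 16.1 nRPKM, Barx2 at 11.4, 8.52 and 6.33 nRPKM and Runx1, which promotes activation, at 7.38, 4.98 and 4.14 nRPKM. Gli2 and Gli3, the effectors of Hedgehog signals, were at 6.33, 6.06 and 4.603 and 4.13, 4.305 and 4.07 nRPKM. The order Sox9, Nfib, Tcf7l2 held in every library, and library 1 was highest for 10 of the 13 expressed factors, beside 39.3% of all expressed genes.

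Of 49 further factors of skin epithelium 25 were expressed (51.0%, beside 46.7% of protein-coding genes) and 5 had no read. The ID genes, BMP targets that block basic helix-loop-helix factors, were the highest, with Id3 at 886, 1162 and 785 nRPKM, Id2 at 372, 581 and 503 nRPKM and Id1 at 205, 239.7 and 155 nRPKM. All 3 peaked in library 2. Trp63, the master factor of basal keratinocytes, was at 125, 156 and 140.2 nRPKM, and Gata3 at 175, 121 and 101 nRPKM. Snai2 was at 104, 110.1 and 139.5 nRPKM, whereas Snai1, its relative linked to mesenchymal change, had 2 reads in all. Klf4 was at 43.7, 46.99 and 44.9 nRPKM and Irx2 at 23.5, 14.2 and 14.4 nRPKM. Lef1, the TCF family member of activated hair germ and matrix, was at 1.64, 0.8803 and 0.576 nRPKM and missed the threshold. Twist1, Twist2, Pitx1 and Foxi3 had no read in any library.

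Together the 63 bulge and basal factors had 38 expressed members, of which 21 were highest in library 1, 14 in library 2 and 3 in library 3. Over all expressed genes those shares were 39.3%, 26.1% and 34.5%. The median difference of these factors from the other libraries was 0.11 in library 1, -0.01 in library 2 and -0.26 in library 3 on log2(nRPKM + 1), beside 0.00 over expressed protein-coding genes in library 1. The genes of these factors had a median GC content of 54.2%, against 50.5% of expressed protein-coding genes. Across 6789 genes a library's difference from the other 2 was related to GC content with a Spearman rho of 0.239, 0.112 and -0.375 in libraries 1, 2 and 3; these are correlations across genes of the same libraries, given as a description. The part of GC content in the order of the factors was not tested.

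Transcription factor families differed in how many members were expressed. Of the SOX genes 1 of 19 was expressed, Sox9, and the next, Sox7 and Sox15, were at 2.82, 0.823 and 1.49 and 0.239, 1.98 and 1.69 nRPKM. The count was 2 without library 1, which adds Sox15, and 2 without library 2, which adds Sox7. Of the LIM homeobox genes 1 of 12 was expressed, Lhx2, with 8 at 0 reads. All 4 nuclear factor I genes were expressed, led by Nfib and Nfia (63.9, 48.1 and 39.9 nRPKM). Among Kruppel-like factors 11 of 17 were expressed and Klf13 was highest at 177, 189 and 189 nRPKM. Forkhead genes had 12 of 44 expressed, with Foxn3 at 31.6, 32.2 and 30.3 nRPKM and Foxo3 at 31.6, 31.2 and 25.7 nRPKM, whose ranges overlapped, and 23 without a read. Foxp3, the factor of regulatory T cells, was listed at 4.004, 3.84 and 3.895 nRPKM, but its gene overlaps Ccdc22 (19.1, 22.6 and 20.5 nRPKM) and the counts cannot be told apart there.

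HOX genes record the position of a cell along the body, and 15 of 39 were expressed. Hoxc8 was highest at 52.5, 44.3 and 43.8 nRPKM, followed by Hoxa7 at 45.8, 36.6 and 30.5 nRPKM, and their ranges overlapped. Hoxd8 was at 19.5, 15.5 and 18.5 nRPKM, Hoxb7 at 18.7, 17.2 and 16.97 nRPKM and Hoxb9 at 9.86, 11.9 and 9.29 nRPKM. Hoxc13, which acts in hair differentiation rather than position alone, was at 7.06, 6.96 and 4.36 nRPKM. The leading genes other than Hoxc13 thus belonged to paralogue groups 7 to 9, while Hoxd1, Hoxa11, Hoxc11, Hoxd11, Hoxd12, Hoxa13, Hoxb13 and Hoxd13 had no read. Neighbouring HOX genes overlap each other and their antisense transcripts in the annotation, so low values within a cluster are uncertain.

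Of the matrix genes 49 of 87 (56.3%) were expressed, beside 46.7% of protein-coding genes, and the median over the list was 3.37 nRPKM. Lamb3 and Lama3 encode laminin chains that anchor hemidesmosomes. Lamb3 was at 210.1, 205 and 165 nRPKM and Lama3 at 23.7, 30.4 and 25.1 nRPKM. Their ranges did not overlap. Lama5, of another epithelial laminin, was at 7.395, 7.105 and 5.72 nRPKM, with Lama3 above it by factors of 3.21, 4.28 and 4.38. Lamb2 was at 6.55, 5.94 and 4.56 nRPKM and Lamc1 at 3.94, 3.74 and 2.74 nRPKM, whereas Lama1 was at 0.396, 0.207 and 0.166 nRPKM, Lama2 had 28 reads and Lamc3 none. In all, 7 of 11 laminin genes were expressed.

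Collagens of the basement membrane were nearly all expressed (9 of 10). Col4a3 was at 30.6, 39.6 and 46.9 nRPKM and exceeded Col4a4 (5.95, 7.11 and 6.96 nRPKM) by factors of 5.13, 5.57 and 6.74. Col4a1 and Col4a2, the chains of most basement membranes, were at 3.24, 2.91 and 2.08 and 3.78, 3.45 and 2.598 nRPKM. The genes of each of these pairs overlap in the annotation. Col4a3 thus exceeded Col4a1 in each library. Col18a1 was at 10.1, 6.05 and 6.04 nRPKM and Col7a1, for the anchoring fibrils, at 4.41, 4.63 and 4.48 nRPKM. Among basement membrane glycoproteins 5 of 10 were expressed, with Egfl6 first and Agrn, for agrin, at 32.1, 33.6 and 28.99 nRPKM. The nidogen genes Nid1 and Nid2, which link laminin to collagen IV, were at 0.193, 0.0287 and 0.135 and 0.0399, 0.0622 and 0.0251 nRPKM, and Hspg2, for perlecan, at 1.197, 0.5304 and 0.446 nRPKM.

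Matricellular proteins, which regulate cells rather than build the matrix, were the most abundant matrix group, summing to 4125, 4503 and 4399 nRPKM. Behind Postn stood Ecm1 at 1096, 1119 and 1001 nRPKM, Tgfbi at 615, 818 and 738 nRPKM and Sparc at 269.7, 389 and 331 nRPKM. Ccn2, for connective tissue growth factor and a target of YAP, was at 387, 261 and 351 nRPKM, and Ccn1 at 120.4, 153 and 166 nRPKM. Thbs2 was at 50.03, 55.3 and 63.1 nRPKM and Matn2 at 45.7, 50.7 and 43.3 nRPKM. Fn1, for fibronectin, was at 0.425, 0.309 and 0.296 nRPKM, and Spp1 and Vtn, for osteopontin and vitronectin, had 16 and 1 reads in all. Postn exceeded Ecm1 by factors of 1.33, 1.399 and 1.64.

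Interstitial matrix gave a contrast between Aspn and the rest. Aspn, for the small leucine-rich proteoglycan asporin, was at 675, 884 and 980.0 nRPKM, lowest in library 1. It overlaps Cenpp in the annotation, which was at 15.1, 12.4 and 15.9 nRPKM. Col6a1 was at 37.9, 40.7 and 35.4 nRPKM, Col5a2 at 14.5, 14.3 and 14.7 nRPKM and Bgn, for biglycan, at 25.2, 8.85 and 12.8 nRPKM. Of this group 7 of 19 were expressed. Col1a1 and Col3a1, the main fibroblast collagens, were at 0.488, 0.442 and 0.243 and 0.399, 0 and 0.0368 nRPKM, and Dcn, for decorin, at 0.318, 0.146 and 0.137 nRPKM. Fbln1, for fibulin 1, was at 78.5, 52.4 and 44.8 nRPKM, while the elastic fibre genes Eln and Fbn1 were at 0.29, 0.0104 and 0.108 and 0.136, 0 and 0.0286 nRPKM. All 4 latent TGF-beta binding protein genes were expressed, with Ltbp1 at 21.1, 19 and 18.8 nRPKM.

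Integrin subunits had 11 of 26 expressed (42.3%), beside 46.7% of protein-coding genes. Itgb4, the partner of Itga6 in hemidesmosomes, was at 52.9, 63.6 and 44.6 nRPKM and exceeded Itga6 by factors of 2.37, 3.65 and 2.71. Itgb1 was at 47.8, 40.8 and 37.99 nRPKM and its range overlapped that of Itgb4. Itgb6 and Itgav, which pair to activate latent TGF-beta, were at 21.9, 26.8 and 30.4 and 16.7, 11.9 and 9.24 nRPKM, and Itgb8 at 4.77, 4.55 and 3.602 nRPKM. Itga3, the other laminin receptor chain, was at 11.3, 9.29 and 10.3 nRPKM. Itga8, the receptor chain for nephronectin, had 13 reads in all. The other expressed chains were Itgb5, Itga2, Itga5 and Itga4, with Itga2, of a collagen receptor, at 7.097, 5.799 and 7.72 nRPKM, Itga5, of a fibronectin receptor, at 5.22, 4.45 and 5.28 nRPKM and Itga4, found on leukocytes among others, at 3.66, 2.27 and 2.93 nRPKM. The leukocyte chains Itgam and Itgal were at 0, 0.111 and 0.0961 and 0.0359, 0 and 0.0904 nRPKM.

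Of the adhesion genes 33 of 49 were expressed (67.3%, beside 46.7% of protein-coding genes), and all 6 hemidesmosome genes were among them. Cdh13, for a cadherin anchored by lipid, was at 336, 364 and 409 nRPKM and exceeded Cdh1, for E-cadherin, at 210.1, 258 and 237 nRPKM. Cdh3, for P-cadherin, which is stronger in hair germ, was at 16.3, 27.3 and 26.04 nRPKM. E-cadherin RNA exceeded that of P-cadherin by factors of 12.9, 9.43 and 9.09. Cdh2, for N-cadherin, had 2 reads. Desmosomes were represented by the basal cadherins Dsc3 (161, 184 and 173 nRPKM) and Dsg3 (56.5, 69.5 and 60.3 nRPKM), with Dsp at 171, 156 and 132 nRPKM, while Dsg1a, of differentiated layers, was at 10.02, 11.2 and 12.8 nRPKM and Dsc1 at 0.552, 0.472 and 0.652 nRPKM. The gap junction genes Gjb5 and Gja1 were at 94.5, 88.04 and 83.6 and 56.1, 85.8 and 92.1 nRPKM, and Gjb2 at 1.85, 0.722 and 1.16 nRPKM. The tight junction genes F11r and Cldn1 were at 214, 293 and 266 and 178, 208 and 229.9 nRPKM, and Cldn8 at 145, 139.8 and 153 nRPKM, with 3 of 23 claudins expressed.

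Of the signalling receptor genes 97 of 155, or 62.6%, reached the threshold, beside 46.7% of protein-coding genes. The median over the list was 3.59 nRPKM. The list also held the cytokine gene Tslp and the adaptor gene Edaradd. Members beyond the 10 highest and the 10 with fewest reads were named to describe each pathway, after their values were seen.

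Wnt receptors had 8 of 16 expressed (50%), beside 46.7% of protein-coding genes. Fzd7 was at 43.3, 32.9 and 26.4 nRPKM, Fzd1 at 36.6, 28.8 and 26.8 nRPKM and Fzd2 at 27.97, 22.4 and 15.7 nRPKM. The ranges of neighbours in this order overlapped, and library 1 was highest for each. The co-receptor gene Lrp6 was at 7.397, 7.19 and 5.78 nRPKM and Lrp5 at 1.43, 1.18 and 0.498 nRPKM. Fzd4, Fzd8 and Fzd10 were below 1 nRPKM in every library. R-spondin receptors, which raise Wnt sensitivity, were all expressed (5 of 5). Lgr4 was highest at 140.2, 131 and 122 nRPKM and Lgr6, of the upper follicle, was at 64.5, 44.5 and 39.6 nRPKM. The order Lgr4, Lgr6, Lgr5 held in every library without overlap, with Lgr6 above Lgr5 by factors of 18.7, 7.07 and 8.54. The GFP- gate selects against Lgr5, and the reporter allele itself lies at the Lgr5 locus. The part of the gate and of the allele in the Lgr5 level was not tested. Znrf3 and Rnf43, the ligases that clear Frizzled receptors, were at 33.7, 29.8 and 29.4 and 7.55, 8.51 and 6.78 nRPKM.

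BMP receptors were lower. Bmpr1a was at 11.6, 10.9 and 8.79 nRPKM and exceeded Bmpr2 (4.46, 4.56 and 4.34 nRPKM) by factors of 2.603, 2.4 and 2.03, while Bmpr1b had 5 reads. TGF-beta receptors Tgfbr1 and Tgfbr2 were at 4.93, 4.57 and 3.89 and 6.27, 4.61 and 4.72 nRPKM, and the activin receptor gene Acvr2a at 10.99, 8.01 and 7.67 nRPKM. Each of these receptor genes with substantial reads was highest in library 1 or 2. FGF receptors varied little between libraries. Fgfr1 was at 46.1, 44.1 and 49.7 nRPKM, Fgfr2 at 17.3, 17.6 and 17.4 nRPKM and Fgfr3 at 16.1, 16.7 and 18.2 nRPKM. Fgfr1 exceeded Fgfr2 by factors of 2.66, 2.502 and 2.86, and Fgfr2 and Fgfr3 overlapped. Fgfr4 was at 0.511, 0 and 0.0488 nRPKM.

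Notch2 was the main Notch receptor gene at 21.5, 19.3 and 11.3 nRPKM, above Notch1 at 5.502, 5.75 and 5.19 nRPKM, with Notch3 at 0.196, 0.289 and 0.242 nRPKM and Notch4 lower. Hedgehog co-receptors were high relative to the signalling core. Gas1 was at 67.9, 53.7 and 44.7 nRPKM and Boc at 57.4, 56.4 and 45.6 nRPKM, and their ranges overlapped. Smo was at 7.04, 5.604 and 4.35 nRPKM and Ptch1, both receptor and target of the pathway, at 5.46, 4.06 and 2.69 nRPKM. Boc exceeded Smo by factors of 8.15, 10.1 and 10.5, and the third co-receptor gene, Cdon, was at 0.417, 0.472 and 0.533 nRPKM. In the EGF receptor family Egfr was at 26.9, 26.3 and 26.9 nRPKM, a coefficient of variation of 1.25%. Erbb3 and Erbb2 were at 6.77, 10.9 and 8.48 and 9.25, 6.899 and 5.89 nRPKM with overlapping ranges. Erbb4 had 0 reads in all libraries, and a count of 0 allows up to 3 reads a library, or 0.132, 0.141 and 0.134 CPM.

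Outside these pathways the highest receptor genes were Tnfrsf1a, for TNF receptor 1, at 188, 197 and 184 nRPKM, and the nuclear receptor genes Vdr and Nr1d1. Vdr, for the vitamin D receptor that follicles need to cycle, was at 138, 169 and 155 nRPKM, and Nr1d1, for a repressor of the circadian clock, at 136, 163 and 156 nRPKM; Nr1d1 overlaps Thra (11.5, 12.4 and 11.4 nRPKM). Il20rb was at 128, 148 and 164 nRPKM while its partner chain genes Il20ra and Il22ra1 were at 2.56, 1.301 and 3.28 and 0.802, 2.11 and 1.99 nRPKM. Cytokine receptors were the group with the largest expressed share among those of over 10 genes, 19 of 23 with the cytokine gene Tslp counted. Ephb6, for a receptor without kinase activity, was at 65.96, 66.1 and 51.9 nRPKM, and Axl, a receptor tyrosine kinase gene, at 49.3, 49.8 and 46.2 nRPKM. Esr1 and Esr2, for the oestrogen receptors, were at 0.1005, 0.117 and 0.0352 and 0.347, 0 and 0.0122 nRPKM. Nr2f1, Rxrg, Epha3, Epha5, Epha6, Epha8 and Plxnb3 had no read, as did Erbb4.

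**Figure D3:**
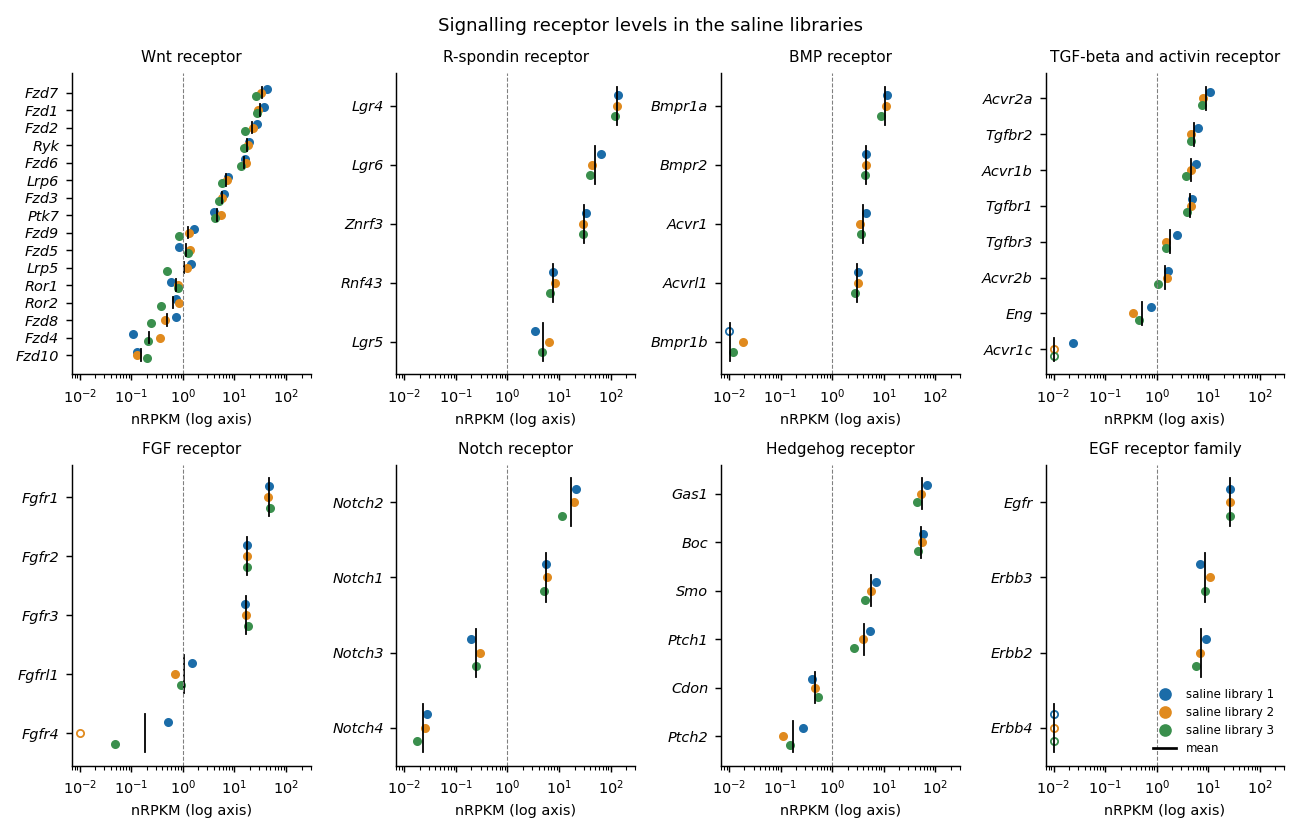
Level of each receptor gene (nRPKM, log axis) of 8 signalling pathways in each saline library; ticks are means of 3 libraries, open points are values of 0.01 or less drawn at 0.01, and the dashed line is 1 nRPKM. Lgr4 has the highest mean among the genes drawn, and the FGF receptor genes Fgfr1, Fgfr2 and Fgfr3 show nearly coinciding points.

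Of the ligand and inhibitor genes 38 of 109 were expressed (34.9%), beside 46.7% of protein-coding genes. The median over the list was 0.254 nRPKM, and the high members were mainly inhibitors. Wnt inhibitors had 5 of 13 expressed and summed to 1088, 1124 and 1042 nRPKM, against 31.3, 15.8 and 14.9 nRPKM for the 19 Wnt ligands. Dkk3, for a divergent Dickkopf protein, was at 375, 451 and 473 nRPKM and Sostdc1, which binds Wnt co-receptors and BMPs, at 444, 384 and 299.8 nRPKM. The ranges of Dkk3 and Sostdc1 overlapped, and their order changed between library 1 and the other 2. Wif1, which binds Wnt proteins, was at 193, 210.0 and 192 nRPKM and Sfrp1, a soluble Frizzled-related inhibitor, at 69.8, 75.3 and 72.4 nRPKM. Dkk1, Dkk4, Notum and Frzb had no read. Of the Wnt ligands 4 of 19 were expressed: Wnt7b at 14.7, 6.65 and 5.96 nRPKM, Wnt3 at 2.46, 3.22 and 3.0 nRPKM, Wnt4 at 3.76, 2.45 and 1.64 nRPKM and Wnt5b at 3.63, 1.69 and 1.66 nRPKM. Wnt7b was over 2-fold higher in library 1 than in both others, and Wnt10a was also highest there (5.06, 0.575 and 0.605 nRPKM). Of the R-spondins only Rspo3 had reads (0.552, 0.669 and 0.546 nRPKM), and Rspo1, Rspo2 and Rspo4 had none.

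BMP inhibitors also stood above BMP ligands, summing to 384, 312 and 308 and 27.4, 20.2 and 21 nRPKM. Grem1, for the BMP antagonist gremlin, was at 186, 129 and 138 nRPKM and Fst, for follistatin, at 141, 121 and 115 nRPKM. Their ranges overlapped. Nog, for noggin, was at 1.72, 1.29 and 1.55 nRPKM and Chrd had 10 reads. Bmp7 was the highest ligand gene at 14.2, 12.5 and 11.7 nRPKM. Bmp6, a bulge signal of quiescence, was at 5.98, 2.43 and 2.67 nRPKM, highest in library 1, and its gene overlaps Txndc5 in the annotation. Bmp4 and Bmp2 were at 2.56, 2.05 and 2.81 and 0.4803, 0.742 and 0.528 nRPKM, so Bmp2 did not reach the threshold in any library. Tgfb3 and Tgfb2 were at 48.4, 70.2 and 51.96 and 18.9, 16.7 and 15.5 nRPKM, and Tgfb1 at 0.0558, 0.166 and 0.0586 nRPKM. Tgfb3 exceeded Tgfb2 in each library.

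Among FGF ligands 2 of 12 were expressed. Fgf1 was at 55.2, 65.1 and 74.9 nRPKM and Fgf18, which bulge cells use to hold the resting phase, at 2.05, 1.73 and 1.295 nRPKM. Fgf1 exceeded Fgf18 by factors of 26.9, 37.7 and 57.8. Fgf7 and Fgf10, signals of the dermal papilla, had no read, nor had Fgf2, Fgf9 or Fgf23. Jag1 was the main Notch ligand gene at 136, 116 and 114 nRPKM, above Jag2 at 15.5, 10.9 and 7.97 nRPKM. Hhip, which sequesters Hedgehog ligands, was at 7.44, 6.698 and 7.22 nRPKM, whereas Shh, Ihh and Dhh had 0, 8 and 1 reads. EGF family ligands were led by Btc at 7.51, 4.45 and 4.96 nRPKM and Nrg4 at 5.27, 4.41 and 4.804 nRPKM, with 3 of 10 expressed.

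Other growth factor genes included axon guidance and nerve factors. Sema3e was at 135, 168 and 156 nRPKM, Ntf3, for neurotrophin 3, at 54.4, 56.6 and 47.5 nRPKM and Bdnf at 22.5, 24.2 and 24.8 nRPKM. The neurotrophins encoded by Ntf3 and Bdnf serve the sensory endings around the bulge. Pdgfa, a signal to dermal cells, was at 102, 87.4 and 66 nRPKM and Vegfa was at 0.2798, 0.104 and 0.0784 nRPKM. Igf1 and Igf2 had 8 and 7 reads.

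Cell cycle genes of different phases overlapped in level, with Mcm6 and Rrm2 above the G1 genes Cdk2, Ccnd3 and Cdk6 by mean. The G1 genes were all expressed, with Cdk4 at 149.8, 127 and 136 nRPKM and Ccnd2 at 129.7, 99.5 and 96.6 nRPKM. Cyclin D2 RNA exceeded that of Ccnd1 (26.8, 22.6 and 20.3 nRPKM) by factors of 4.84, 4.41 and 4.76. Cdk4 overlaps Tspan31 in the annotation. Of the proliferation genes 13 of 18 were expressed (72.2%), beside 46.7% of protein-coding genes. The replication genes Mcm6, Rrm2 and Mcm5 were highest at 23.8, 23.02 and 22.1, 15.96, 16.8 and 21.9 and 11.99, 11.4 and 11.4 nRPKM. Top2a was at 7.15, 5.08 and 5.61 nRPKM, Cdk1 at 3.33, 2.96 and 3.19 nRPKM and Mki67, for the proliferation antigen, at 1.77, 0.6003 and 0.684 nRPKM. Mki67, Plk1, Ccnb1, Bub1 and Ccne1 missed the threshold in at least 1 library. Among inhibitors of cyclin-dependent kinases Cdkn2d was at 40.5, 37.7 and 37.8 nRPKM and Cdkn1b, for the p27 protein, at 35.1, 25.2 and 17.1 nRPKM. Cdkn1a, for the p21 protein, was at 9.17, 11.4 and 10.3 nRPKM and Cdkn2a had no read.

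Immediate early genes have RNA that responds within minutes to stimulation and to tissue dissociation. Among them 18 of 21 were expressed (85.7%), beside 46.7% of protein-coding genes. Ier3 was at 219, 243 and 267 nRPKM, Klf6 at 74.2, 80.1 and 93.2 nRPKM and Btg2 at 45.95, 67.02 and 96.8 nRPKM. Each was highest in library 3. Fos was at 12.6, 8.16 and 52.2 nRPKM and Atf3 at 7.96, 5.92 and 23.6 nRPKM, both over 2-fold higher in library 3 than in the other 2. Of the expressed members 6, 0 and 12 were highest in libraries 1, 2 and 3, beside 39.3%, 26.1% and 34.5% of all expressed genes. Jun went the other way at 9.25, 5.702 and 5.84 nRPKM, as did Junb at 5.14, 4.69 and 3.16 nRPKM. The time between dissection and lysis is not given in the sources used here, and its part was not tested.

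Markers of other cell types that such a gate could hold were examined by list, and each count stands beside 46.7% of protein-coding genes. The upper follicle and isthmus, next to the bulge, had 10 of 10 markers expressed with a median of 22.6 nRPKM over the list; Plet1 was at 80.3, 98.9 and 105 nRPKM and Lrig1 at 12.6, 9.21 and 9.22 nRPKM. Suprabasal epidermis had 13 of 21 expressed, and the median over all 21 was 7.61 nRPKM. Krtdap, for a protein of differentiating keratinocytes, was at 1048, 1053 and 839.8 nRPKM and Sbsn at 287, 359 and 272 nRPKM. Genes of later differentiation ranged widely. Asprv1, for a protease of the granular layer, was at 20.2, 21.8 and 14.3 nRPKM, Cdsn, for corneodesmosin, at 8.3, 13.2 and 8.86 nRPKM and Ivl, for involucrin, at 3.37, 7.69 and 4.81 nRPKM. Below the threshold were Lor at 0.569, 0.926 and 0.506 nRPKM, Flg at 0.232, 0.418 and 0.292 nRPKM and Krt2 at 0.259, 0.176 and 0.0454 nRPKM. Hair germ and matrix markers had 3 of 10 expressed; Edar, Fgf5 and Shh had 8, 5 and 0 reads. Inner root sheath and hair shaft had 4 of 22 expressed, and Gata3, also a basal factor, held most of that list's sum. Sebaceous gland markers had 7 of 14 expressed, led by Mgst1 at 58.8, 69.3 and 78.5 nRPKM, which other cells also express. The other expressed members were Plin2, Acsbg1, Elovl4, Scd1, Far2 and Fasn, and the count was still 7 at a threshold of 2 nRPKM. Among the 7 that missed the threshold, Awat1, Scd3 and Pparg were at 0, 0.155 and 0.0293, 0, 0.0477 and 0.04502 and 0, 0.101 and 0.109 nRPKM.

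Markers of cells outside the epithelium were also examined, and which cells gave their reads was not tested. Immune markers had 11 of 20 expressed (55%), beside 46.7% of protein-coding genes. They summed to 241, 164 and 212 nRPKM, lowest in library 2. Cd74 was at 114, 86.96 and 102 nRPKM and Cd207, for langerin of Langerhans cells, at 2.72, 1.701 and 2.09 nRPKM. The T cell gene Cd3g was at 21.8, 7.801 and 17.96 nRPKM and Cd3e at 10.2, 3.92 and 10.2 nRPKM, and both were over 2-fold lower in library 2 than in the other 2 libraries. Ptprc, for the pan-leukocyte antigen CD45, was at 0.5498, 0.162 and 0.8702 nRPKM, and Cpa3 and Ncr1 had no read. Endothelial cells also carry CD34 and CD49f on their surface, and 0 of 11 of their markers were expressed, or 2 without library 2. Their sum was 7.28, 2.51 and 16.6 nRPKM, highest in library 3, where Emcn was at 5.84 nRPKM and Pecam1 at 2.404 nRPKM. Cd34 exceeded Pecam1 by factors of 507, 2682 and 462, and Kdr and Cdh5, further defining genes, were at 0, 0.0159 and 0 and 0.106, 0.0751 and 0.294 nRPKM.

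Fibroblast markers had 2 of 10 expressed, Fbln1 and Col1a2 (6.54, 5.37 and 3.898 nRPKM), while Lum had no read and Pdgfra 14. Dermal papilla markers had 2 of 7 expressed, Wif1 and Crabp1 (10.3, 15.2 and 16.1 nRPKM), of which Wif1 is also on the bulge list, and Sox2 had no read. Melanocyte markers had 3 of 10 expressed: Mitf at 12.6, 16.2 and 16.6 nRPKM, Dct at 2.13, 3.89 and 5.02 nRPKM and Pmel at 2.96, 3.85 and 4.15 nRPKM, whose gene overlaps Cdk2. Tyr had no read and Sox10 had 2. The summed melanocyte markers were 18.1, 26.3 and 28.8 nRPKM, and 6, 2 and 1 of 10 were at 0 in libraries 1, 2 and 3. Of 21271 protein-coding genes, 7606, 6948 and 6447 were at 0 in the same libraries, so library 1 had the most there too. Muscle and pericyte markers had 1 of 10 expressed, Tagln at 1.03, 1.15 and 2.17 nRPKM. Schwann cell and nerve markers had 2 of 7, Mbp and Ngfr, and Merkel cell markers 0 of 6, with no read for Atoh1. Adipocyte and erythrocyte markers had 2 of 9, the globin genes Hbb-bs (2.56, 1.22 and 2.69 nRPKM) and Hba-a1 (1.74, 1.01 and 1.32 nRPKM), the second with a near-identical copy, and Adipoq and Plin1 had no read. In bulk RNA, few cells of a type and little RNA per cell cannot be told apart, and the part of these cells in any level given here was not tested.

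**Figure D4:**
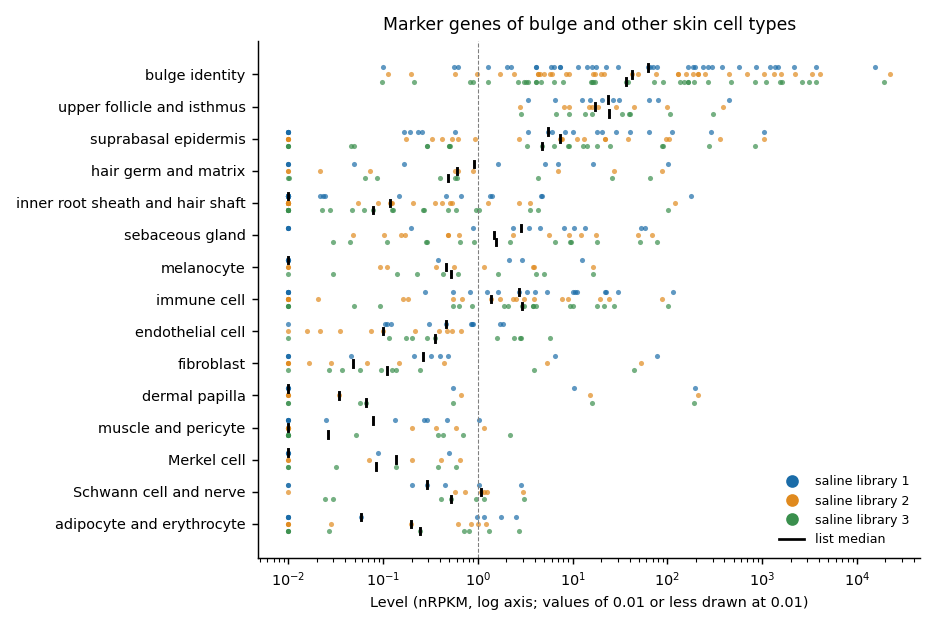
Level of each listed marker gene (nRPKM, log axis) by cell type and saline library; black ticks are the list's median in that library and the dashed line is 1 nRPKM. The bulge and upper follicle lists have medians above 10 nRPKM in each library, the medians of the endothelial, fibroblast and Merkel lists are below 1 in each, and Emcn in library 3 is the highest endothelial point.

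The silent part of the genome was large. No read in any library was found for 15336 of 36528 listed genes (42.0%) and for 5842 of 21271 protein-coding genes (27.5%). Sensory receptor families were among them. Of 1099 olfactory receptor genes 1076 had no read and none was expressed. Olfr456 was the highest at 0.7401, 0.495 and 0.544 nRPKM. Vomeronasal receptors had 346 of 353 genes at 0 reads and taste receptors 33 of 38. Many of these genes have close copies, which unique alignment under-counts. The taste receptor subunit gene Tas1r3 was listed at 0.443, 0.148 and 0.524 nRPKM.

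Across the 11115 expressed genes, Spearman correlations of nRPKM were 0.969 between libraries 1 and 2, 0.959 between 1 and 3 and 0.983 between 2 and 3, a description over genes that share the same libraries. Library 1 was in both of the lower pairs. The median coefficient of variation was 13.8% (quartiles 8.23% and 21.6%), or 8.51% without library 1, with 3717 genes under 10% and 217 over 50%. By mean level it was 16.7% at 1 to 10 nRPKM, 11.6% at 10 to 100, 9.62% at 100 to 1000 and 10.6% over the 34 genes at 1000 nRPKM or more. The common biological coefficient of variation from edgeR, which removes counting noise, was 21.6%, and 15.1% without library 1.

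Among 7390 genes with a mean of at least 5 nRPKM, departures of 1 library by over 2-fold from both others on log2(nRPKM + 1) were few. Library 1 was higher for 33 genes (0.447%) and lower for 26 (0.352%). Library 2 was higher for 0 (0%) and lower for 9 (0.122%), and library 3 higher for 13 (0.176%) and lower for 4 (0.0541%). Genes higher in library 1 included Mtx2, of the mitochondrial outer membrane (20.5, 4.103 and 5.301 nRPKM), Pgls, of the pentose phosphate pathway (39.1, 11.4 and 8.4 nRPKM), Ndfip1, a ubiquitin ligase adaptor (43.8, 11.9 and 15 nRPKM), and Rxrb, a retinoid X receptor gene (10.04, 3.56 and 3.53 nRPKM). Members of the lists among them were Krt1, Wnt7b, Ifngr2, Rxrb and Cd52. Genes lower in library 1 included, beside Angptl7, the acute phase gene Serpina3n (9.91, 27.4 and 32.3 nRPKM), Pcolce2 (3.73, 16.9 and 11.9 nRPKM) and Vit (4.097, 13.04 and 11.2 nRPKM), whose products are extracellular, and the small RNAs Mir140 and Snord100.

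Of the 9 genes lower in library 2, 7 were protein-coding, and 5 of them are known from lymphocytes. Nkg7, of cytotoxic granules, was at 18.2, 4.49 and 16.3 nRPKM, Cd7 at 18.5, 4.04 and 10.2 nRPKM and Il2rg at 10.4, 3.09 and 8.46 nRPKM. Fabp4, of adipocytes and capillary endothelium, was at 14.7, 2.77 and 30.7 nRPKM and Vim, for vimentin, at 13.2, 3.48 and 10.5 nRPKM. The immune marker sum given above, which includes Cd3e and Cd3g, was lowest in library 2, and so was the endothelial marker sum. Fabp4 had the library order of the endothelial sum, with library 3 highest. The part of these cells in the values was not tested. In library 3, 9 of the 13 higher genes were small RNAs, such as Snord96a at 19.2, 34.4 and 75.5 nRPKM, and the others named were Fos, Atf3 and Cytl1. Ogdhl, a mitochondrial enzyme gene, was lower there at 14.9, 13.7 and 6.31 nRPKM. The capture of small RNAs in a polyadenylated library, and its part in these values, was not tested.

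**Figure D5:**
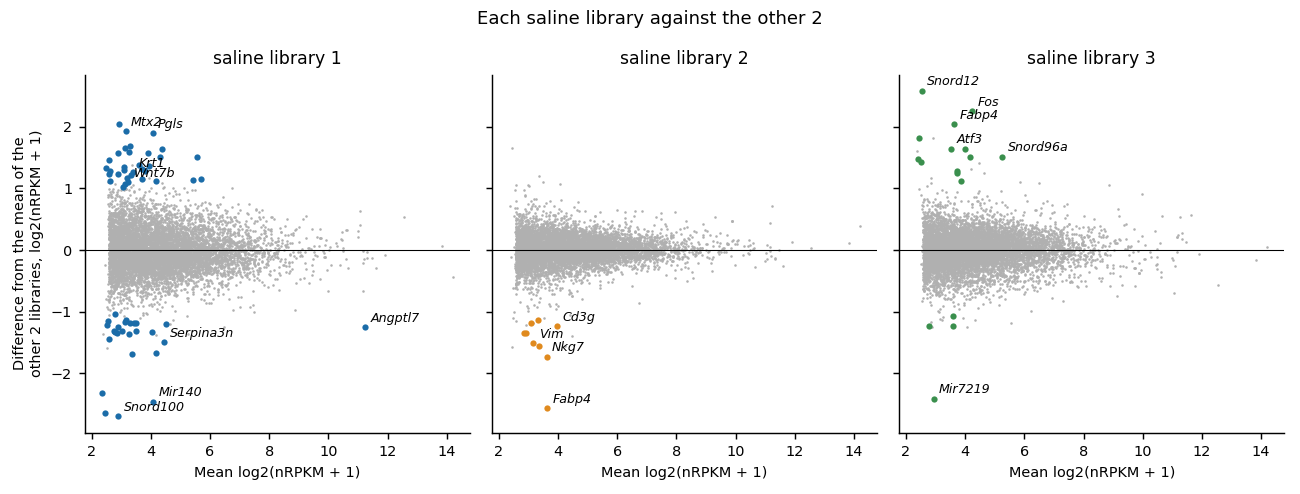
Difference of each saline library from the mean of the other 2 on log2(nRPKM + 1) against the mean level, for genes with a mean of at least 5 nRPKM; coloured points are the genes that differ by over 2-fold from both other libraries. Most points lie within 1 of 0, and the cloud is narrowest for library 2.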

How the data were processed

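Polyadenylated RNA of sorted cells was sequenced, and only the 3 saline libraries entered. Reads were aligned with GSNAP to GRCm38, per the submitters' processing notes; neither the gene annotation nor any use of strand is stated in the sources used here. The count of a gene is its number of uniquely aligned reads, per the file headers, so genes with near-identical copies (Krt6a and Krt6b, globins, Hspa1a and Hspa1b, ribosomal proteins, clustered receptors) are under-counted and overlapping genes share reads. The nRPKM is an RPKM adjusted by a library size factor, per the file headers. Entrez numbers were matched to RefSeq on GRCm38, which named 31049 of 36528 (85%); unnamed genes held 1.67, 1.57 and 1.51% of reads. Of the expressed genes 46 shared identical counts with another.

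The nRPKM was a rescaling of the counts by gene length and by library, so ranks of genes differ between nRPKM and counts. Levels were compared between genes on nRPKM, and a mean ± SD (n = 3) gives the spread. A gene was expressed at 1 nRPKM or more in every library. Departures of 1 library used log2(nRPKM + 1), a mean of at least 5 nRPKM and a 2-fold difference from both others. The biological coefficient of variation came from edgeR 4.0.16 (R 4.3.3) on counts with TMM scaling, an intercept only and a filter on low counts (at least 10 reads); tables were made with pandas 2.3.3 and SciPy 1.17.1 in Python 3.11.15. Both steps were tested on simulated data. For departures the planted changes were larger, the genes higher and the simulated spread smaller than in the data. That check therefore does not cover genes near the 2-fold limit or near 5 nRPKM. The genes named are the 25 highest, the 10 highest and up to 10 lowest of each list, the markers, and the genes farthest from the other libraries; genes outside this rule were named after their values were seen. The members, lists and rules were chosen with earlier results of these data known. A count of 0 allows 3 reads, or 0.132, 0.141 and 0.134 CPM; this covers counting error only. Library numbers follow record order. Alternatives changed the threshold, unit, pseudocount, scaling and filter and left out each library.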

Additional observations from a re-analysis of the deposited data

How the results depend on the processing

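The count of expressed genes was 12434 and 9505 at thresholds of 0.5 and 2 nRPKM, 11877 by a mean of at least 1 nRPKM and 12807 at 1 TPM. The nRPKM of the libraries summed to 392846, 404553 and 397117, so 1 TPM is a lower threshold than 0.5 nRPKM and not only another unit. With 1 library left out the count was 11282 to 11444, and genes at 0 reads were 15751 to 16845. The top-100 share was 34.4 to 35.1% with 1 library left out but 28.2% as a share of counts, which are not divided by length. On CPM without length the markers stood at other percentiles: Cd34 99.8, Itga6 86.7, Sox9 99.2, Lhx2 92.2 and Postn 99.9. The median coefficient of variation was 10.7% at a threshold of 10 nRPKM and 8.51 to 14.2% with 1 library left out, lowest without library 1. The biological coefficient of variation was 28.9% without a filter and 15.1 to 25.6% with 1 library left out, lowest without library 1. Departures by library depended on the level filter: with a mean of at least 1 nRPKM, library 1 was higher for 63 and lower for 88 genes, library 2 for 10 and 30, and library 3 for 37 and 9. With a mean of at least 20 nRPKM these were 5 and 5, 0 and 0, and 2 and 0. A pseudocount of 0.1 gave 1 gene higher in library 2, and CPM after TMM scaling gave 4 genes higher in library 3; the cause was not tested. Of 43 lists and families, the count of expressed members moved by over 1.5 times in 8 at 1 TPM, 4 and 5 at 0.5 and 2 nRPKM, 3 by the mean, and 1, 2 and 0 without libraries 1, 2 and 3 (the Sox genes without library 1, the Sox genes and the endothelial markers without library 2), all of them lists with 5 or fewer expressed members. No paired analysis was possible because the labels give no replicate numbers and no result comes from a test between groups. With 3 libraries of 1 group the SD is itself imprecise, and genes below about 1 nRPKM rest on few reads. Because nRPKM is scaled to gene length, short genes such as small RNAs rest on few reads at higher nRPKM as well.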

Other observations

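Several gene groups outside the main lists also had distinct levels. Of 25 ion channel and transporter genes 15 were expressed. After Aqp3, Slc3a2, for an amino acid transporter subunit, was at 73.8, 77.9 and 69.3 nRPKM and its partner gene Slc7a5 at 1.09, 1.01 and 0.2795 nRPKM. The channel gene Trpv4, which responds to warmth and osmotic stress, was at 36.5, 41.1 and 34.4 nRPKM. Grik1, for a glutamate receptor subunit of neurons, was at 16.1, 20.3 and 18.03 nRPKM, with a coefficient of variation of 11.8%. Piezo1, a mechanically gated channel gene, was at 2.35, 1.92 and 1.704 nRPKM and Piezo2, of Merkel cells, at 0.0889, 0.0713 and 0.138 nRPKM. Among interleukin genes and their receptors matched by the family name, 5 of 36 were expressed and 18 had no read. Il34, which sustains Langerhans cells, was the highest at 44.2, 64.7 and 82.8 nRPKM and was lowest in library 1. Il33 was at 2.74, 1.81 and 4.76 nRPKM and Il7 at 2.55, 2.18 and 3.04 nRPKM.

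Imprinted genes had 6 of 24 expressed. Sgce was at 20.6, 27.5 and 30.7 nRPKM, Snrpn at 12.5, 16.3 and 12.9 nRPKM and Gnas at 14.7, 12.8 and 11.3 nRPKM. H19, Meg3, Rian, Magel2 and Peg12 had no read, and Igf2 had 7. Snrpn overlaps Snurf in the annotation.

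Reads of Y-linked genes and of Xist occurred together in every library. Ddx3y was at 10.6, 10.8 and 14.2 nRPKM, Eif2s3y at 22.8, 17.1 and 34.1 nRPKM and Uty at 2.31, 2.36 and 3.399 nRPKM, while Xist was at 2.36, 3.35 and 3.53 nRPKM. Xist overlaps its antisense gene Tsix, listed at 1.85, 3.19 and 3.65 nRPKM, and whether counting used strand is not given in the sources used here. The sex and number of the mice are likewise not given.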
